A study of Mus musculus with 4 samples.

Results

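The Egr and Nr4a genes are 7 immediate-early genes, Egr1, Egr2, Egr3, Egr4, Nr4a1, Nr4a2 and Nr4a3, and their open chromatin was described in LβT2 cells treated with vehicle or activin. The members were fixed by name, and every peak that the authors' annotation assigned to one of these names was taken. When the peaks of all libraries were merged where they overlapped by at least 1 bp, 62 of 255101 regions belonged to the 7 genes, out of 35667 genes that had a peak. LβT2 (written LβT2b in some labels) is an established mouse line that resembles the gonadotrope of the pituitary, in which luteinizing hormone and follicle-stimulating hormone are made. Both groups were kept without serum overnight and then given vehicle or 1 nM activin A for 6 h. Activin A is a TGFβ family ligand that drives the follicle-stimulating hormone β subunit gene Fshb. Open DNA was tagged with a transposase (ATAC-seq), with 50000 cells per reaction and 2 libraries per group, named vehicle library 1 and 2 and activin library 1 and 2. The labels do not say whether these came from separate cultures, so p-values measure the spread between these libraries only. A change in the share of cells with an open site and a change in opening within each cell cannot be told apart in such bulk libraries.

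Egr proteins are zinc finger transcription factors that bind GC-rich sites, and Nr4a proteins are orphan nuclear receptors that bind as monomers or dimers. Genes of both families are switched on within minutes of a stimulus and without new protein synthesis, through factors that already sit at their promoters, such as CREB at cAMP response elements (CREs) and serum response factor at CArG boxes. In gonadotropes, Egr1 links gonadotropin-releasing hormone to the luteinizing hormone β subunit gene Lhb.

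Promoter sequences of 5 of the 7 genes were found in the RefSeq table for GRCm38.p6 and are shown because the promoter peaks described next cover the bases printed. Capitals mark the CRE core TGACG on either strand (CGTCA when read from the other), the CArG box and the run TATAAA on either strand. Only this exact form of the TATA box was marked, so near forms such as tatataag in Egr4 stay in lower case. The Nr4a1, Nr4a2 and Egr4 sequences are the 250 bases before the RefSeq start. For Egr2 and Nr4a3, which have other RefSeq starts in or near that window, the 30 bases with the most marked bases are shown. They begin 133 bases before a start at 67537930 for Egr2 and 213 bases before a start at 48045305 for Nr4a3. All are written 5′ to 3′ in the direction of transcription.
Nr4a1, chr15:101266596-101266845, plus strand: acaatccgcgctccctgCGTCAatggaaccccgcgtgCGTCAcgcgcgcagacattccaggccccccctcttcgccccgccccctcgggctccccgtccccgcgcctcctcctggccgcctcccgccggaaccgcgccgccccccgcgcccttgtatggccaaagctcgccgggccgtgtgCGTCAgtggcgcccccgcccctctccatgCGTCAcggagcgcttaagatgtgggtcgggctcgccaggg
Nr4a2, chr2:57124004-57124253, minus strand: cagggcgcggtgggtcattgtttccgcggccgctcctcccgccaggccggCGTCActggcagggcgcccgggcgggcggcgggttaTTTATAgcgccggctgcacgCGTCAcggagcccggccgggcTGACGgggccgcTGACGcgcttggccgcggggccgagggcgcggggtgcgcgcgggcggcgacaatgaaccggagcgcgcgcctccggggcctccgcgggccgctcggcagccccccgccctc
Nr4a3, chr4:48045092-48045121, plus strand: CGTCAcatTGACGtctcgcattccaggcac
Egr4, chr6:85513590-85513839, minus strand: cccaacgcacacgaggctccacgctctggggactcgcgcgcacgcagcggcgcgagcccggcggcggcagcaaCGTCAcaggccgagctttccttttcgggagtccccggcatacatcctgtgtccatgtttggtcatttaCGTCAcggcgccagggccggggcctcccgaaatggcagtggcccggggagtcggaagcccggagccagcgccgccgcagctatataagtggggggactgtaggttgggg
Egr2, chr10:67537797-67537826, plus strand: CCATATATGGgcagcgaCGTCAcgggtatt

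For each gene the 250 bases before the RefSeq start nearest the authors' start were read. The CRE core was in 5 of the 5 genes, and in 17.8% of 32544 promoters of that table, which counts every start of a gene. Counted so, 7 of the 9 windows of these genes held it, the exceptions being 2 of the 5 Egr2 windows. Nr4a1, Nr4a2 and Nr4a3 each held 4 matches, a pair of which is in the Nr4a3 bases shown, and Egr2 and Egr4 each held 2. Among all promoters 3.92% held 2 or more and 0.694% held 3 or more. Among the 12051 promoters overlapped by a region with a peak in all 4 libraries, those shares were 7.61% and 1.58%, and 28.5% held at least 1. The full palindrome TGACGTCA was found in none of the 5, against 1.55% of all promoters. A CArG box was found in Egr2 alone, against 1.48%. The exact run TATAAA was found in Nr4a2 alone, against 12.3%, on the other strand and 164 bases before the start. The EGR site GCGNGGGCG was in the promoters of Nr4a1 and Nr4a2 (4.74% of all), and the NBRE AAAGGTCA, to which Nr4a monomers bind, was in none of the 5 (1.35%). The Smad box CAGAC was in those of Egr2, Nr4a1 and Nr4a3 (42.2%), and the GC box GGGCGG in those of Nr4a1, Nr4a2 and Nr4a3 (33%). For Egr2 the GC box was in windows of other starts only. Among the 12051 promoters with a region in all 4 libraries, 63.9% held the GC box, 39.5% the Smad box and 10.2% the EGR site. There the full palindrome was in 2.81%, the CArG box in 0.996%, TATAAA in 4.87% and the NBRE in 0.68%. Both strands were read throughout, an EGR site can overlap a GC box, and a match is a run of letters and not a measured binding site.

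The libraries held between 172146474 and 224226184 high-quality autosomal reads. Of these reads, between 6.93% (vehicle library 1) and 11.1% (vehicle library 2) lay in peaks. Enrichment at start sites was 2.48 to 2.72 under vehicle against 3.04 to 3.12 under activin. Vehicle library 2 stood apart with 178358 peaks, against 70692 to 85112 in the other three. Of the gonadotrope marker genes, 5 of 8 had a peak within 1 kb of the start in all 4 libraries (Lhb, Cga, Gnrhr, Nr5a1 and Gata2), while Fshb had none there in any library. None of 7 markers of other pituitary lineages had one in all 4, nor did any of 6 markers of other tissues except Myod1. Such a peak in all 4 libraries was present for 23% of all genes with a peak.

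The map of called peaks shows how these genes were laid out. Of all 255101 regions, 171817 had a peak in 1 library, 37408 in 2, 15980 in 3 and 29896 in all 4. Of the 62 member regions, 34 had a peak in 1 library, 11 in 2, 2 in 3 and 15 in all 4. Vehicle library 2 alone gave 21 of the 34. Member peaks numbered 24 and 48 under vehicle against 30 and 24 under activin, and the means differed by −9 (36 ± 17 against 27 ± 4.24, SD, n = 2; exact 2-sided permutation p = 1, where the smallest possible p is 0.333). Without vehicle library 2 the difference was +3. The authors give each peak a −log10 q, their own measure of its strength over background within that library. In the 47 regions not found in all libraries it was at most 4.07, with a median of 1.48 for each region's strongest peak. Of the 15 found in all, 9 reached 5 in every library, and the share of all regions that did so was not counted. The promoter regions of Egr1, Egr2, Egr4, Nr4a1 and Nr4a3 were among them, that of Egr2 through a peak over 1 kb from the start in vehicle library 2, and the other 4 lay farther away.

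**Figure D1:**
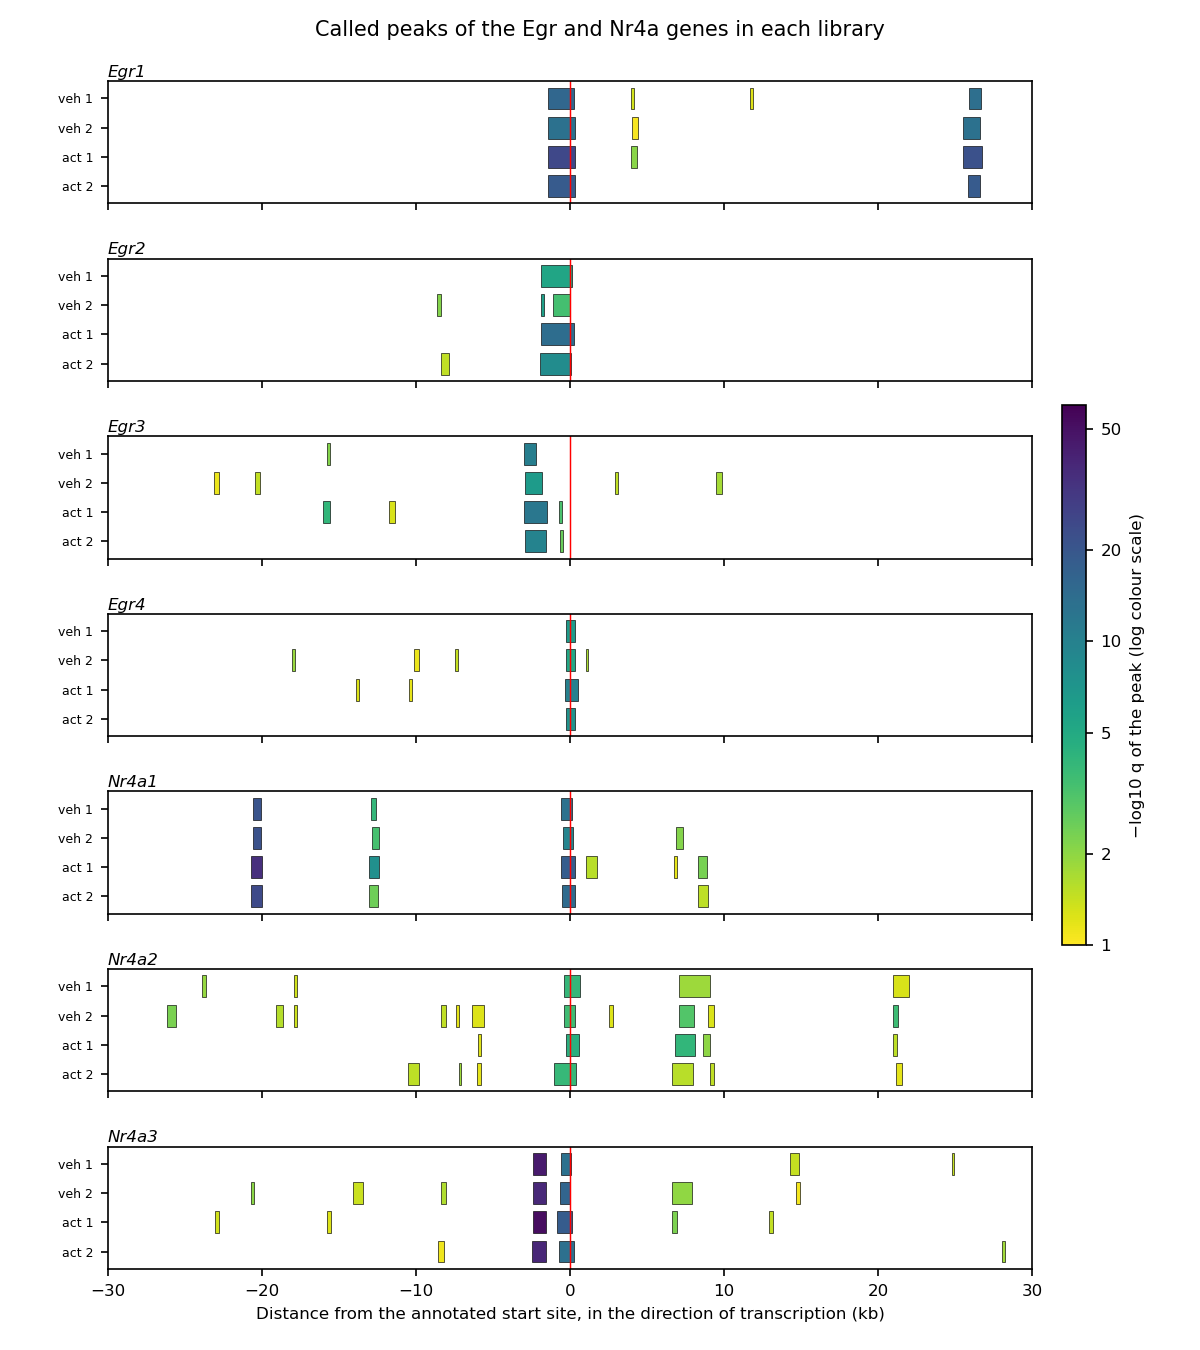
Called peaks of the 7 genes by distance of the peak centre from the annotated start site (x axis, kb, direction of transcription to the right, red line at the start). Each gene has 1 row per library, and colour gives the −log10 q of the peak. The darkest column of peaks is the Nr4a3 region 2.0 kb upstream of its start, and Egr3 has a peak within 1 kb in the activin libraries alone.

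A peak that the annotation calls a promoter was assigned in all 4 libraries to 5 of the 7 genes, Egr1, Egr2, Nr4a1, Nr4a2 and Nr4a3. For Nr4a2 in vehicle library 1 and activin library 1, that peak lay more than 1 kb from the start. The only Nr4a2 peak within 1 kb in those libraries was annotated as an exon. Such a peak in all 4 libraries was present for 19.6% of all genes with a peak. Egr4 joined them when any peak within 1 kb of the start was counted, which gave 6 of 7 against 23% of genes. With a −log10 q of at least 5 as well, Egr1, Egr4, Nr4a1 and Nr4a3 remained, against 14.9%. These shares are a description and were not tested.

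Egr1 (ENSMUSG00000038418), the member with the best known role in gonadotropes, had a broad promoter region, chr18:34859782-34861558. Its −log10 q stood at 15.4 and 13.1 under vehicle against 24.8 and 18.9 under activin, which put it between the 94.2nd and 97.6th percentile of its own library's peaks. Read density, counted as high-quality reads in each kb of that library's peak for every 1000000 such reads, was 4.54 and 3.80 under vehicle against 5.63 and 5.06 under activin. Both activin libraries were above both vehicle libraries in −log10 q and in density, as in 71.7% and 62.4% of all tested regions. A second Egr1 region lay between genes, 26.1 kb downstream of the start (chr18:34886719-34887986). Its −log10 q was 13.8 and 13.0 under vehicle against 21.6 and 18.7 under activin. The density there was 3.47 and 2.30 under vehicle against 3.08 and 3.77 under activin, so the groups overlapped in density while they did not in −log10 q.

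Egr2 (ENSMUSG00000037868), best known for its part in myelination and hindbrain patterning, had a promoter region of 2224 bp, chr10:67535983-67538206. In vehicle library 2 it was split into 2 peaks and in the others it was 1. The strongest −log10 q was 5.39 and 6.02 under vehicle against 14.0 and 8.30 under activin, and the groups did not overlap. In vehicle library 2 the 6.02 belongs to a piece of 200 bp centred 1797 bp upstream, and the piece nearer the start had 3.42. Density was 1.86 in each vehicle library against 2.28 and 2.20 under activin, again apart. The other Egr2 region in all libraries lay 79.0 kb upstream (chr10:67458788-67459153) and was weak, with a −log10 q of 1.64 to 3.02.

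Egr3 (ENSMUSG00000033730), which acts in muscle spindle development and in lymphocytes, was the one member without a peak within 1 kb of its start in every library. Its nearest region in all 4 libraries, chr14:70074467-70075974, lay between genes and 2.2 kb upstream of the start. Its −log10 q was 10.5 and 6.41 under vehicle against 11.8 and 9.58 under activin, and its density 3.37 and 2.16 under vehicle against 2.84 and 3.04 under activin. Both measures overlapped between the groups. At the promoter itself (chr14:70076747-70076967), 598 bp upstream in activin library 1, short peaks of 201 and 143 bp were called in activin libraries 1 and 2, with a −log10 q of 3.27 and 2.57, and none in the vehicle libraries.

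The Egr3 promoter was 1 of 2 member regions called in the activin pair only. The other was at the 3′ end of Nr4a1 (chr15:101275154-101275775, −log10 q 2.31 and 1.49). These were 2 of the 11 member regions called in exactly 2 libraries, against 9.23% of 37408 such regions in all, and 3 of the 11 were called in the vehicle pair only, against 33.1%. A further Egr3 region in all libraries lay 111.7 kb upstream, in an intron of another gene (ENSMUSG00000022085; chr14:69965421-69966076), with a −log10 q of 2.58 and 4.59 under vehicle against 7.34 and 4.76 under activin.

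Egr4 (ENSMUSG00000071341), a regulator of spermatogenesis, had a single region in all libraries, chr6:85513044-85513927. It covered the start site, and the annotation calls it a promoter in 3 libraries and exon 1 of 2 in activin library 1. The −log10 q was 6.41 and 5.20 under vehicle against 10.0 and 7.35 under activin, without overlap. Density was 2.11 and 1.73 under vehicle against 2.10 and 2.25 under activin, with overlap. The remaining 7 Egr4 regions were each called in 1 library.

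Nr4a1 (ENSMUSG00000023034), known as Nur77, had its strongest region away from its promoter. This was an intergenic region 20.4 kb upstream of the start, chr15:101246122-101246833, with a −log10 q of 20.8 and 21.3 under vehicle against 34.7 and 23.9 under activin. Its density was 5.67 and 4.84 under vehicle against 6.45 and 5.76 under activin. At the promoter, chr15:101266273-101267197, the −log10 q was 12.9 and 9.29 under vehicle against 18.2 and 14.5 under activin, and the density 4.81 and 4.15 under vehicle against 5.05 and 4.88 under activin. Both regions had both activin libraries above both vehicle libraries in −log10 q and in density. Of all tested regions, 71.7% had this order in −log10 q and 62.4% in density. With each library centred on its median region, the promoter had the reverse order and the groups overlapped at the upstream region. A further region, chr15:101253810-101254417, was annotated as intergenic 12.7 kb upstream, yet it contains the outermost RefSeq start of Nr4a1 at 101253902. Its density was 3.94 and 2.82 under vehicle against 3.48 and 2.90 under activin, and its −log10 q ranged from 2.47 to 7.84.

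Nr4a2 (ENSMUSG00000026826), known as Nurr1 and needed by midbrain dopamine neurons, had weak peaks throughout. The promoter region, chr2:57123333-57125046, was annotated as promoter in vehicle library 2 and activin library 2 and as exon 1 of 8 in the other two. It had a −log10 q of 3.93 and 3.58 under vehicle against 4.51 and 3.88 under activin. Its density, 1.57 and 1.57 under vehicle against 1.64 and 1.44 under activin, would rank at the 5.03rd percentile of 6159 tested regions within 1 kb of a start, of which it was not one. Regions 7.5 kb downstream, in intron 1 of 7 (chr2:57114651-57117387), and 21.2 kb downstream (chr2:57101968-57103013) were also called in all libraries. None of the 12 Nr4a2 regions reached a −log10 q of 5 in any library. Its promoter sequence shown above holds 4 CRE cores, as many as those of Nr4a1 and Nr4a3.

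Nr4a3 (ENSMUSG00000028341), known as Nor1, had the strongest region of the family. It lay between genes, 2.0 kb upstream of the start (chr4:48042732-48043697). The −log10 q was 44.6 and 38.2 under vehicle against 52.3 and 38.4 under activin, between the 98.8th and 99.8th percentile of each library's peaks. Density was 8.65 and 7.25 under vehicle against 9.96 and 8.38 under activin, the 99.3rd percentile of 7712 tested regions beyond 1 kb. Groups overlapped on both scales. The Nr4a3 promoter, chr4:48044360-48045467, had a −log10 q of 13.0 and 16.2 under vehicle against 18.6 and 13.5 under activin, and a density of 5.18 and 4.69 under vehicle against 4.93 and 5.14 under activin. The groups overlapped in both. Its fold enrichment over the authors' background was lower in both activin libraries, at 3.01 and 3.15 under vehicle against 2.94 and 2.90 under activin. Among the 10 tested member regions, fold had this order in 1, the reverse in 7 and overlap in 2. The share of all tested regions with each order of fold was not counted, so these counts have no background. For −log10 q, 71.7% of all tested regions had both activin libraries above both vehicle libraries.

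In both Nr4a1 and Nr4a3 the strongest peak lay more than 1 kb from the annotated start in all 4 libraries. This was so for 2 of the 5 members that had peaks both within and beyond 1 kb in every library. Of all 3619 such genes, 603 (16.7%) had it.

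**Figure D2:**
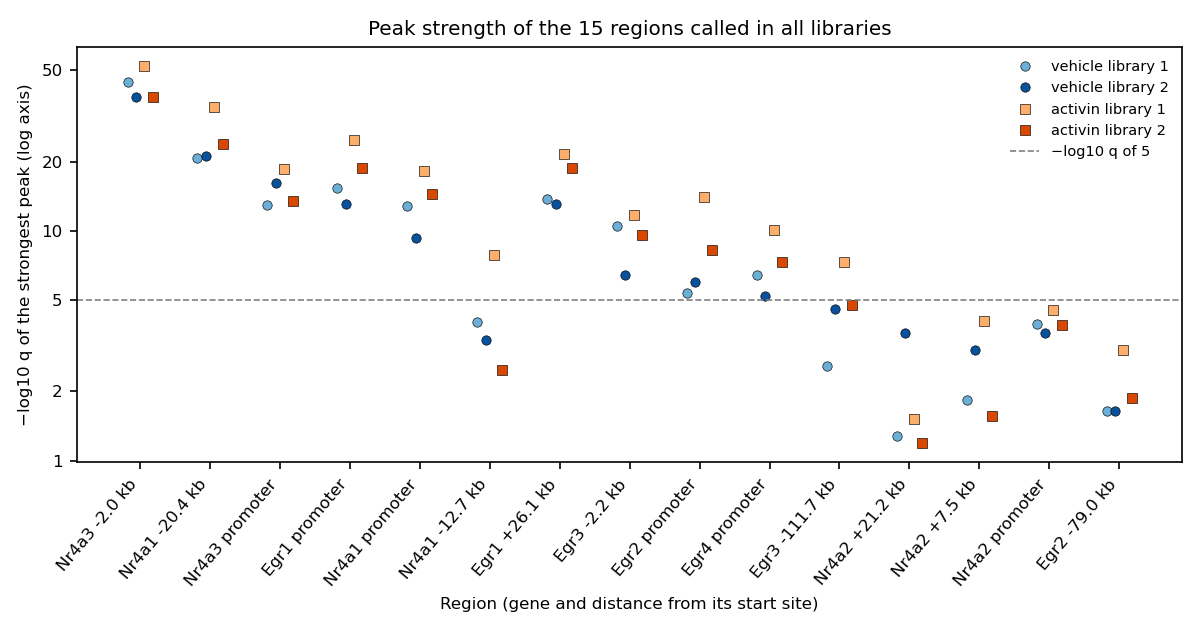
Peak strength of the 15 regions found in all libraries, as the authors' −log10 q of the strongest peak in each library (log axis), ordered by mean read density. Circles are vehicle libraries, squares are activin libraries and the dashed line is at 5. Activin library 1 is the highest in every region except the Nr4a2 region 21.2 kb downstream, where vehicle library 2 is.

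Levels were ordered by density, which is per length of each library's own called peak. The order therefore also depends on how wide each peak was called. The Nr4a3 region 2.0 kb upstream came first with 8.56 ± 1.11 (SD over all 4 libraries), and its range did not touch that of any other. The next 4 were the Nr4a1 region 20.4 kb upstream at 5.68 ± 0.66, the Nr4a3 promoter at 4.99 ± 0.229, the Egr1 promoter at 4.76 ± 0.778 and the Nr4a1 promoter at 4.72 ± 0.393, whose ranges overlapped from each to the next. The range of the Nr4a1 promoter was apart from that of the next region, while that of the Egr1 promoter (3.80 to 5.63) was not. The other 10 ran from the Nr4a1 region 12.7 kb upstream at 3.29 ± 0.529 to the Egr2 region 79.0 kb upstream at 1.45 ± 0.183, each overlapping its neighbour. Among tested regions within 1 kb of a start, the Nr4a3, Egr1 and Nr4a1 promoters were at the 82.1st, 79.4th and 78.9th percentile. The Egr4 promoter was at the 15.6th. The Egr2 promoter, which was not itself tested, would rank at the 15.8th.

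**Figure D3:**
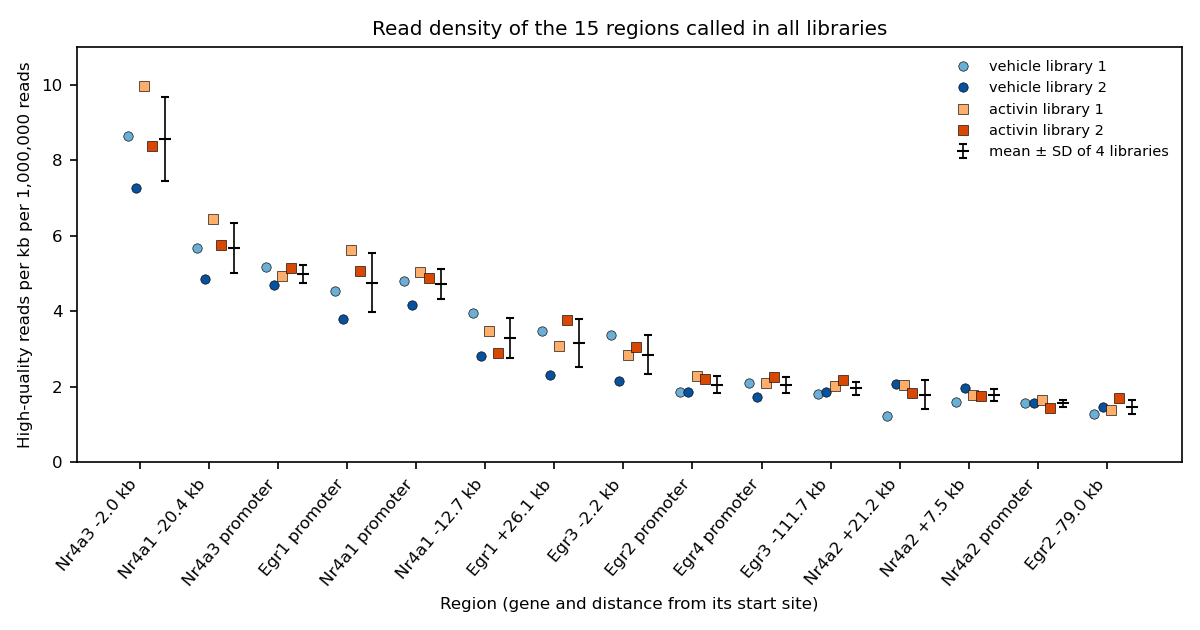
Read density of the same 15 regions (y axis, high-quality reads per kb of peak per 1000000 high-quality reads). Points are libraries, and the black marks are the mean and SD of the 4 libraries. The Nr4a3 region 2.0 kb upstream sits between 7.25 and 9.96, above every other region.

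Reads per unit of chromosome length differed between the chromosomes that carry these genes, and this touches the order. Relative to the median autosome, chromosome 6 (Egr4) had 0.603, chromosome 14 (Egr3) 0.624, chromosome 10 (Egr2) 0.634, chromosome 4 (Nr4a3) 0.831, chromosome 18 (Egr1) 0.833, chromosome 15 (Nr4a1) 1.01 and chromosome 2 (Nr4a2) 1.34. For each of these the values of the 4 libraries stayed close together, for example 0.62 to 0.635 for chromosome 14. With densities divided by these values, the Nr4a3 region 2.0 kb upstream stayed first at 10.3, and the Egr1 promoter (5.71) and Nr4a3 promoter (6.00) came before the Nr4a1 region 20.4 kb upstream (5.62). The Egr3 region 2.2 kb upstream moved from rank 8 to rank 6, at 4.57, and the Nr4a2 promoter came last at 1.16. The percentiles of density given above, among them those of the Egr2, Egr4 and Nr4a2 promoters, are of densities not divided in this way. What part these differences between chromosomes have in the levels was not tested.

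The comparison the study's design implies is activin against vehicle. The −log10 q of each activin library exceeded that of each vehicle library in 7 of the 10 member regions that could be tested, and in 71.7% of all 13871 regions tested. Density per 1000000 reads had this order in 4 of the 10, and in 62.4% of all. Tested regions were those with exactly 1 peak per library that overlapped in at least 50% of the merged length. The first share was thus close to the background, in which most regions had this order, and the second was below it. Enrichment at start sites was also higher in both activin libraries, and its part in this order was not tested.

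With each library centred on its median region, the order was less one-sided. Both activin libraries were above both vehicle libraries in 1 member region, the Egr1 promoter, against 20.9% of all tested regions. They were below in 2, the Nr4a1 and Nr4a3 promoters, against 20.5%, and the groups overlapped in 7. On this scale the limma test with Benjamini-Hochberg adjustment called 0 of the 10 member regions and 0 of all 13871 (0%). The members' log2 changes had a median of −0.083, with 1 above and 9 below 0. All 13871 tested regions had a median of −0.0049, with 6783 above and 7088 below 0. At an unadjusted p under 0.05, 1 member region was lower and 0 were higher, while 5.91% of all tested regions were lower and 3.62% higher.

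The Egr1 promoter had a log2 change of 0.088 (standard error 0.093, 95% interval −0.12 to 0.30; limma adjusted p = 0.787). It was 0.00036 when at least 80% of the merged length had to be shared, 0.19 among all merged regions, and 0.046 to 0.13 with each library left out. The Egr1 region 26.1 kb downstream had −0.0046 (−0.38 to 0.37) and the Egr4 promoter −0.092 (−0.41 to 0.22). The Egr3 region 2.2 kb upstream had −0.15 (−0.51 to 0.21), the one 111.7 kb upstream −0.074 (−0.41 to 0.26), and the Egr2 region 79.0 kb upstream −0.096 (−0.55 to 0.36). All 6 intervals of the Egr genes held 0, and together they ran from −0.55 to 0.37.

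Of the Nr4a genes, 4 regions were tested. The Nr4a3 region 2.0 kb upstream had a log2 change of −0.068 (−0.30 to 0.17), the Nr4a1 region 20.4 kb upstream −0.056 (−0.26 to 0.15) and the Nr4a1 promoter −0.12 (−0.33 to 0.081). The Nr4a3 promoter, at −0.24 (standard error 0.095, −0.46 to −0.029), was the one member with an unadjusted p under 0.05, and it was not called (limma adjusted p = 0.491). Its called intervals differed between the groups, at 677 and 637 bp with vehicle and 1030 and 923 bp with activin. Without division by length the change was 0.18. The unadjusted p was over 0.05 without the trend, without vehicle library 1, vehicle library 2 or activin library 1, and in the wider table of all merged regions, where the change was −0.14. With each library left out it ran from −0.31 to −0.17. The median promoter peak was also longer with activin, at 815 and 772 bp against 679 and 623 bp.

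The other 5 regions found in all libraries had more than 1 peak in a library or too small a common part, so they were fitted among all 28977 merged autosomal regions with a peak in every library, a wider table than the main one, in which limma called 0 (0%). The Egr2 promoter had a log2 change of 0.099 (−0.29 to 0.48) and the Nr4a1 region 12.7 kb upstream −0.24 (−0.61 to 0.14). The Nr4a2 promoter had −0.21 (−0.68 to 0.26). The Nr4a2 regions 7.5 kb and 21.2 kb downstream had −0.18 (−0.69 to 0.33) and 0.12 (−0.60 to 0.85). All 5 intervals held 0.

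The sign of the members' changes rested on the scale. When libraries were scaled to all high-quality reads and not to their median region, the median tested region moved up by 0.274, to 0.269. All 10 member changes were then above 0, as were 12284 of all 13871 tested regions. The member changes ran from 0.031 at the Nr4a3 promoter to 0.36, with a median of 0.19. No member was called on that scale either (smallest limma adjusted p = 0.113), while 605 of all tested regions were, 553 higher and 52 lower. No direction is therefore given for any member.

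**Figure D4:**
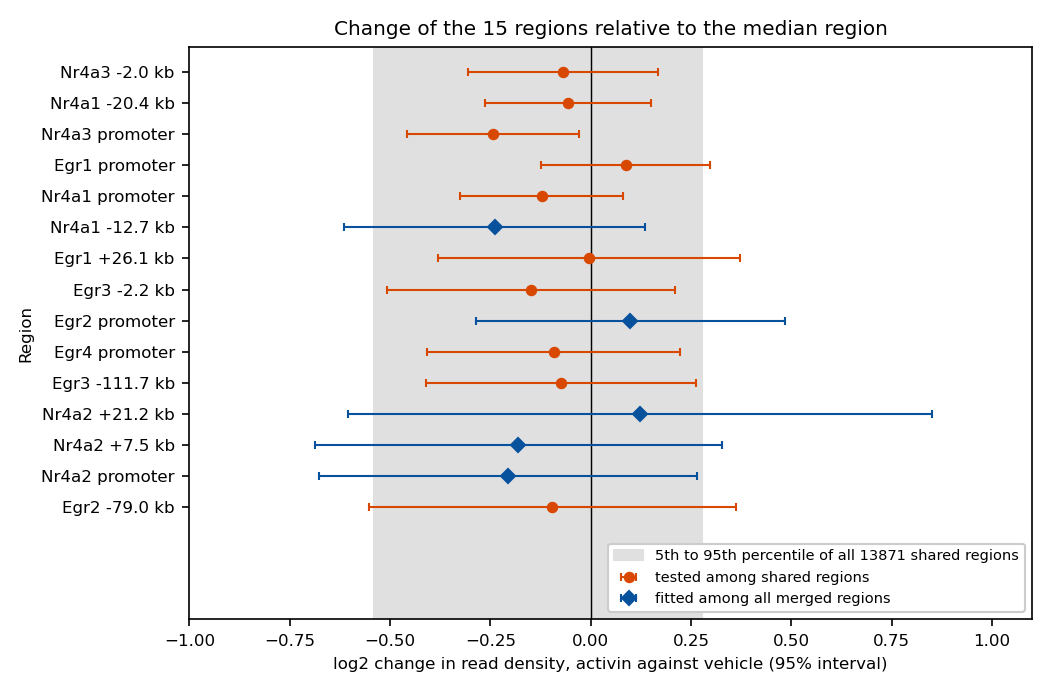
Log2 change in centred read density with activin against vehicle (x axis) for the 15 regions (y axis), with 95% intervals from limma. Circles are the 10 tested regions, diamonds the 5 fitted in the wider table, and the grey band is the 5th to 95th percentile of all tested regions (−0.54 to 0.28). Every point lies inside the band, and the interval of the Nr4a3 promoter alone does not hold 0.

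Other immediate-early genes were read by the same promoter rule, from a list of 36. A peak within 1 kb of the start in all 4 libraries was present in 29, against 23% of all genes with a peak. A further 4 had none there in any library (Fosl2, Jund, Csrnp1 and Gadd45b). The highest mean densities were at Klf10 with 9.45, Btg2 with 8.73 and Zfp36 with 7.77, a zinc finger factor, an antiproliferative factor and an mRNA decay factor, all above the 4.99 of the Nr4a3 promoter. Of the 22 that could be tested, 14 changes were above and 8 below 0 with a median of 0.09, against 0.032 for all 6159 tested regions within 1 kb and −0.11 for the 4 tested member promoters. Of all 6159, 3592 were above and 2567 below 0. None of the 22 was called. Myc had an unadjusted p under 0.05 at 0.24 (limma adjusted p = 0.524), with densities of 2.59 and 2.23 under vehicle against 3.59 and 3.30 under activin.

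Regulators and partners of the families were a list of 15. It held the serum response factor and CREB systems, the Nab corepressors of Egr proteins and the retinoid X receptors that pair with Nr4a1 and Nr4a2. Of these genes, 4 had a peak within 1 kb in all libraries, a share near the 23% of all genes with a peak. Read numbers are given for autosomal peaks, which leaves 3 of the 4 with a density: Srf with 5.62, Rxra with 3.71 and Nab1 with 3.41. The fourth, Elk1 on chromosome X, had a −log10 q of 16.4 to 25.7. Srf was tested and had a log2 change of 0.19 (limma adjusted p = 0.535), and Nab1 had −0.067. Of the 4 gonadotrope genes with which Egr1 acts, 3 had such a peak, against 23% of all genes with a peak. Their mean densities were 3.68 at Lhb, 3.04 at Nr5a1 and 1.93 at Gnrhr. Neither of the 2 tested was called, with changes of −0.032 at Lhb and 0.095 at Gnrhr.

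The promoters most alike to those of Egr1 and Nr4a1 were found by the smallest distance between centred log2 densities over the 4 libraries, among 6155 compared. For Egr1 they were Klf7 (distance 0.0298), Uhrf1 (0.0351) and Atl2 (0.0558), with a median distance of 1.25 over all. Klf7 had densities of 4.46 and 3.79 under vehicle against 5.67 and 5.06 under activin, close to those of Egr1. For Nr4a1 they were Mknk2 (0.0425), Gm5617 (0.0586) and Btbd9 (0.0693). With 4 values per promoter, this likeness is mostly one of level.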

How the data were processed

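ATAC-seq was measured in 4 libraries, grouped by the sample titles. The submitters' processing notes name Bowtie2, MACS2, HOMER and GRCm38/mm10, without settings. The authors deposited, per library, broad peaks (score, fold enrichment as a ratio, −log10 p and −log10 q), a HOMER annotation and an ataqv 1.3.1 report with library totals and the number of high-quality reads in each autosomal peak of that library, per the file headers and layout. Those numbers of reads stand in a quality report and not in a count table, so no count model was fitted. Because peaks were called per library, intervals and their number differ between libraries, and a place without a peak has no read value.

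Log2 of (reads + 1) per kb was centred per library on its median and fitted with limma 3.58.1 in R 4.3.3 (trend, no block, Benjamini-Hochberg at 0.05) over all shared regions (exactly 1 peak per library on chromosomes 1 to 19, common part at least 50%). The fit was tested on simulated data. Intervals are 95%. Regions found in all libraries or reaching a −log10 q of 5 were described singly, the rest by counts. Of each list the 3 highest promoter densities were named, and the 3 promoters most alike to those of Egr1 and Nr4a1. The members and lists were chosen with earlier results of these data known. The motifs, the stretches printed, the values per chromosome (length taken to the last RefSeq gene end) and the count of genes whose strongest peak is distal were chosen after the values were seen. Alternatives were scaling, length division, pseudocount, overlap, read minimum, trend, a replicate block and leaving out each library.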

Additional observations from a re-analysis of the deposited data

How the results depend on the processing

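The number of regions called was 0 among the 13871 tested and 39 without length division, 605 with scaling to all high-quality reads, 1 with a pseudocount of 10 reads, 4 with a replicate block (all lower) and 0 to 9 when each library was left out. The labels do not say what a shared replicate number stands for. Deviations of same-numbered libraries correlated at −0.0252, which with 2 libraries per group cannot tell whether they were paired. No member region was called in any of 192 alternative values, whose smallest adjusted p was 0.113, and 157 of those values kept their sign. The members' difference in peaks became +1 among peaks reaching a −log10 q of 5, and ran from −21 to 3 with each library left out. At that strength 3 members had an annotated promoter peak in all libraries and 9 regions were found in all.

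Changes of sign came from 4 sources, and the cause was not tested. Without length division, the log2 change was −0.051 at the Egr1 promoter, 0.045 at Egr1 26.1 kb downstream, 0.15 at Egr3 111.7 kb upstream, 0.34 at Egr3 2.2 kb upstream, 0.073 at the Egr4 promoter, 0.11 at Nr4a1 20.4 kb upstream, 0.25 at Nr4a1 12.7 kb upstream, 0.12 at the Nr4a1 promoter, −0.80 at Nr4a2 21.2 kb downstream and 0.18 at the Nr4a3 promoter. Scaled to all reads, it was 0.27 at Egr1 26.1 kb downstream, 0.18 at Egr2 79.0 kb upstream, 0.20 and 0.13 at Egr3 111.7 and 2.2 kb upstream, 0.18 at the Egr4 promoter, 0.22 at Nr4a1 20.4 kb upstream, 0.15 at the Nr4a1 promoter, 0.21 at Nr4a3 2.0 kb upstream and 0.031 at the Nr4a3 promoter. Fitted among all merged regions, it was 0.10 at Egr1 26.1 kb downstream, 0.011 at Egr2 79.0 kb upstream, 0.032 at Egr3 111.7 kb upstream, 0.015 at the Egr4 promoter, 0.050 at Nr4a1 20.4 kb upstream and 0.038 at Nr4a3 2.0 kb upstream. With each library left out in turn, it ran from −0.21 to 0.21 at Egr1 26.1 kb downstream, −0.29 to 0.094 at Egr2 79.0 kb upstream, −0.18 to 0.033 and −0.38 to 0.085 at Egr3 111.7 and 2.2 kb upstream, −0.42 to 0.056 and −0.34 to 0.59 at Nr4a2 7.5 and 21.2 kb downstream, and −0.16 to 0.018 at Nr4a3 2.0 kb upstream. A lone library in a group was assumed to vary like the other group.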
